A study of Sus scrofa with 12 samples.

Results

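The 10 circadian clock genes CLOCK, PER1, PER2, PER3, CRY1, CRY2, NR1D1, NR1D2, DBP and BHLHE40 were taken by symbol from the 28210 genes that RefSeq places on the chromosomes of the pig genome build Sscrofa11.1. Their chromatin loops and the RNAs found on their DNA were read in the longissimus muscle of 2-week-old Large White (LW) piglets, labelled a commercial lean breed, and Meishan (MS) piglets, labelled a Chinese local breed. The study's methods describe the piglets as male, and the labels give no treatment. For each breed there were 2 BL-HiChIP libraries against H3K27ac and 2 GRID-seq libraries. Whether the libraries of a breed came from different animals is not clear, so p-values measure the spread between these libraries, which may be technical. The hour of collection is not given in the sources used here, so breed, animal and time of day cannot be told apart.

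The clock is a feedback loop of transcription. CLOCK and its partner BMAL1 (ARNTL) bind E-box sequences and activate the PER and CRY genes, whose proteins return to the nucleus and repress CLOCK and BMAL1. A further arm is formed by the nuclear receptors NR1D1 and NR1D2 (REV-ERB alpha and beta), which repress ARNTL, while DBP carries the rhythm to output genes and BHLHE40 (DEC1) represses at E-boxes. Skeletal muscle has a clock of its own, known for timing the uptake and use of fuel, and the RNA levels of several of these genes swing widely over a day.

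BL-HiChIP (bridge linker HiChIP) ligates DNA fragments that are neighbours in the nucleus and pulls them down with an antibody to acetylated histone H3 (H3K27ac), which marks active regulatory DNA. The lists held between 33353 and 57028 loops per library, each between 2 bins of 5 kb. The strength of a loop is the −log10 of its false discovery rate (FDR), and the loop score of a gene is the summed strength of the loops anchored within 1 kb of its lower or upper end. GRID-seq ligates RNA to nearby DNA. Its lists held between 519 and 681 chromatin-enriched RNAs per library with 7172517 to 9943666 RNA reads, and the signal of each RNA on DNA bins of 1 kb. Each list stopped above a minimum of reads, so a missing RNA is not listed rather than absent. As a check of the tissue, 10 of 10 muscle fibre genes had loops in all 4 libraries and 7 had a listed RNA, against 0 of 4 adipocyte, 0 of 3 immune and 0 of 2 satellite cell genes with loops in all 4. Of other cell types, 3 of 4 endothelial, 2 of 3 fibroblast and 1 of 2 liver genes had loops in all 4 libraries.

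Loops reached most of the clock genes. 8 of the 10 genes had a loop in all 4 libraries, as did 31.7% of the protein-coding genes in the table, and the exceptions were PER3 and CRY1. The 4 libraries together gave 98 loops at these genes, 68 in LW and 70 in MS. Of these, 40 were called in both breeds, which was 58.8% of the LW loops and 57.1% of the MS loops. The same shares over all loops in the lists are not given here, so these cannot be read as particular to the clock genes. Only 5 of the 98 were called in all 4 libraries, 12 in 3, 29 in 2 and 52 in a single library. The share called in all 4 was 5.10%, beside 3.78% of all loops in the lists. The median loop score of the clock genes was 22.7 and 19.7 in the LW libraries, against 14.6 and 19.5 in the MS libraries, beside medians of 8.77, 5.90, 6.12 and 4.33 over the 15431 genes with a loop in any library. The median distance between anchors was 60 kb over the pooled LW loops and 75 kb over the pooled MS loops. By library it was 60 and 75 kb in LW against 82.5 and 65 kb in MS, and the breeds overlapped. Over all loops in the lists it was 50, 45, 55 and 40 kb in the same order.

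**Figure D1:**
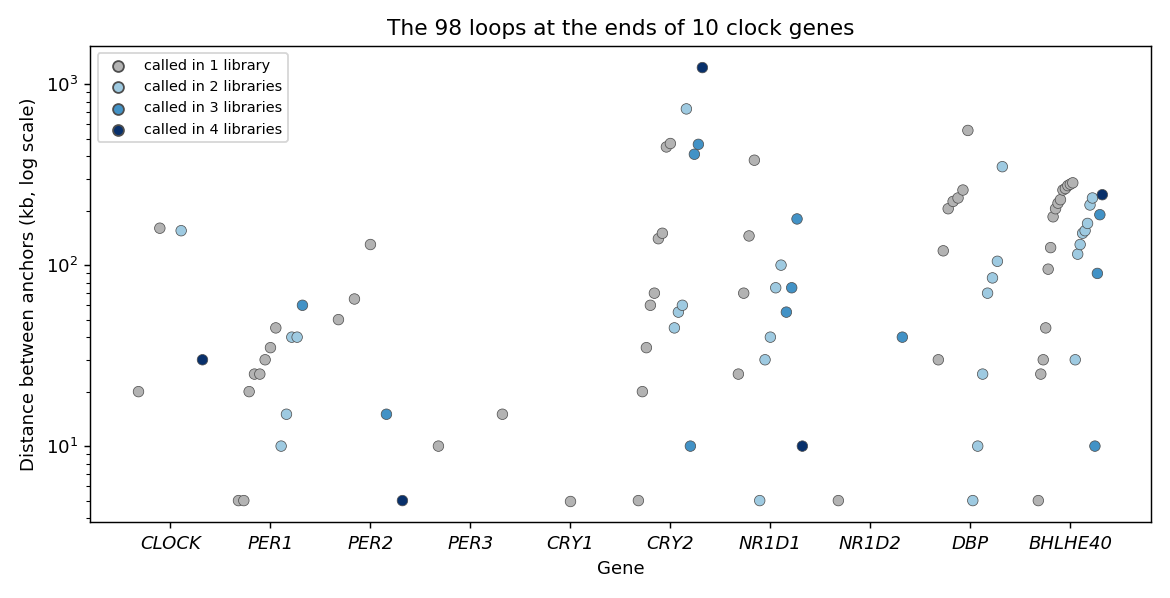
Distance between the anchors of each of the 98 loops (kb, log axis) at the 10 genes, with 1 point per loop, coloured by the number of libraries that called it and spread sideways for display. The CRY2 loop of 1235 kb is the longest and was called in all 4 libraries, and CRY1 has a single point.

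CLOCK, the DNA-binding activator of the feedback, lies at chr8:54793323-54910192. Its loop score was 15.0 and 12.9 in the LW libraries, against 10.8 and 7.27 in the MS libraries. The loop called in all 4 libraries joined the upper end of CLOCK with a bin 30 kb away inside the gene, with strengths of 10.6 and 12.9 for LW and 5.56 and 5.07 for MS. The same end was joined over 155 to 160 kb with TMEM165, a Golgi membrane transporter gene, in LW replicate 1 and both MS libraries. Both LW scores of CLOCK were above both MS scores.

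PER1, a repressor of CLOCK and BMAL1 that responds quickly to hormones and light, lies at chr12:53361863-53376723. It was among the strongest of the set, with scores of 104.0 and 65.0 in LW against 96.8 and 78.5 in MS, and the breeds overlapped. Its main loop differed by 1 bin between the libraries of a breed in the same way in both breeds. In LW replicate 1 and MS replicate 1 a loop of 15 kb joined both ends of the gene, with strengths of 56.1 and 63.1. In LW replicate 2 and MS replicate 2 the loop from the same anchor spanned 10 kb, with strengths of 48.4 and 72.6. Apart from these contacts within the gene, PER1 was joined to a cluster of tRNA genes 60 kb away in 3 libraries and to HES7, a repressor gene of the segmentation clock, 20 to 40 kb away in 3 libraries. The upper anchor of PER1 also holds an end of VAMP2, a vesicle fusion gene, and the lower anchor holds ends of tRNA genes, so these loops cannot be given to PER1 alone.

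PER2, the second repressor of this family, lies at chr15:137793419-137837854 and had lower scores, at 30.6 and 10.5 for LW and 10.5 and 8.39 for MS. The LW replicate 1 library stood above the other three, which lay close together. A loop of 5 kb at the upper end was called in all 4 libraries, with strengths between 4.57 and 8.39, and a loop of 15 kb in both LW libraries and MS replicate 1. A loop of 50 kb to HES6, a regulator of cell differentiation, was called in LW replicate 1 alone. PER3, the third member, lies at chr6:68487634-68548718 and had no loop in LW, against scores of 2.33 and 4.77 in MS. Each MS value was a single loop, of 10 kb and of 15 kb toward VAMP3 and CAMTA1.

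CRY1 and CRY2 encode the cryptochromes, the repressors that act with the PER proteins. At CRY1, chr5:13275265-13429566, a single loop of 5 kb was called in LW replicate 2 with a strength of 3.12, and no loop in the other libraries. CRY2, at chr2:16587101-16620380, had 17 loops in all and scores of 27.5 and 79.7 in LW against 40.5 and 49.6 in MS. Both MS values fell between the LW values. The strand of the CRY2 RNA puts the start of the gene at its upper end, and all 17 loops left from the bins within 1 kb of that end. The bin that holds the start gave 2 of them and the neighbouring bin 15.

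The longest loop of the set joined the bin beside the start of CRY2 with PACSIN3, a membrane-shaping gene active in muscle, over 1235 kb. It ran from chr2:16615001-16620000 to chr2:15380001-15385000 and was called in all 4 libraries, with strengths of 2.44 and 11.6 for LW and 3.77 and 4.70 for MS. Over all genes, 369 loops over 1 Mb were called in any library and 5 of them in all 4. CRY2 was also joined to the body of DGKZ, a lipid kinase gene, over 465 kb in both LW libraries and MS replicate 1. In MS replicate 2 the loop into DGKZ ended in the neighbouring bin, over 470 kb with a strength of 4.67. The body of CREB3L1, a transcription factor gene, was joined over 410 kb in both LW libraries and MS replicate 1. Nearer loops ended at PEX16, a peroxisome assembly gene, 55 to 60 kb away in both LW libraries and MS replicate 2.

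NR1D1 lies at chr12:22263549-22274131 and had scores of 84.3 and 305 in LW against 99.7 and 266 in MS. In both breeds replicate 2 was far above replicate 1, and the breeds overlapped. Of its 13 loops, 11 left from the bin at the lower end. A loop of 10 kb from that bin was called in all 4 libraries, with strengths of 62.4 and 99.4 for LW and 59.6 and 107 for MS. A loop of 55 kb into MED24, a Mediator subunit gene, had a strength of 103 in LW replicate 2, and the MS libraries gave 30.8 and 73.1. A loop of 30 kb into THRA, the thyroid hormone receptor alpha gene, was called in LW replicate 2 with a strength of 70.0 and in MS replicate 2 with 41.9. RARA, a retinoic acid receptor gene 180 kb away, was joined in both LW libraries and MS replicate 1. NR1D1 and THRA overlap by 3626 bp at the upper end of NR1D1, so values there belong to both genes.

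NR1D2, the paralog of NR1D1, lies at chr13:10756954-10791219 and had 1 loop in each library, with scores of 4.47 and 5.19 in LW against 3.59 and 7.66 in MS. In both LW libraries and MS replicate 1 this was a loop of 40 kb to the bin shared by NKIRAS1, an NF-kappa-B regulator gene, and RPL15, a ribosomal protein gene. In MS replicate 2 it was a loop of 5 kb at the gene itself. The paralogs thus stood far apart in loop score in every library.

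DBP, the output factor, lies at chr6:53986955-53993044 in a gene-dense stretch. Its scores were 17.9 and 26.4 for LW and 18.3 and 30.6 for MS, and the breeds overlapped. Its 14 loops spread over distances of 5 to 555 kb, none was stronger than 8.41, and none was called in more than 2 libraries. Both MS libraries joined DBP over 70 kb with MAMSTR, a gene of a MEF2 coactivator, and RASIP1, with strengths of 5.53 and 8.34. RASIP1 was also joined, with IZUMO1, over 85 kb in LW replicate 1 with a strength of 7.50 and in MS replicate 2 with 5.52. FAM83E was joined to DBP over 10 to 25 kb in LW replicate 2 and both MS libraries. SULT2B1 was joined over 25 kb in both MS libraries, and RPL18 over 10 kb in replicate 2 of both breeds. TMEM143 was joined over 205 to 225 kb in LW replicate 2 and MS replicate 1. The replicate 2 libraries of both breeds joined DBP over 350 kb with the bin shared by PPFIA3 and HRC, with strengths of 3.01 in LW and 2.37 in MS. HRC is a calcium-binding protein gene of the sarcoplasmic reticulum. A loop of 260 kb to the bin shared by GYS1, the muscle glycogen synthase gene, and RUVBL2 was called in LW replicate 2 alone. The anchor of DBP also holds an end of SPHK2.

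BHLHE40 lies at chr13:61526121-61533686 and had the highest loop score of the set in every library, 169 and 475 in LW against 146 and 327 in MS. Among genes with a loop, these scores were at percentiles of 99.5, 99.9, 99.4 and 99.7. Of its 27 loops, 17 ended inside ITPR1, the gene of an inositol trisphosphate receptor that releases calcium. These loops made up 88.0% and 75.8% of the score in LW and 93.0% and 80.4% in MS. The strongest, over 245 kb, was called in all 4 libraries with strengths of 81.9 and 235 for LW and 61.4 and 148 for MS. The anchor at the lower end of BHLHE40 also holds an end of the long noncoding RNA gene LOC106505661.

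The breeds were compared with limma on quantile-normalised log2(loop score + 1), where a fold change of a low gene is understated. PER3 was the member past the study's thresholds of an absolute log2 fold change over 1.5 with an unadjusted p under 0.05, at 2.28 higher in MS (SE 0.84, adjusted p = 0.853, limma). Across all genes, 2.50% passed these thresholds as higher in MS and 2.83% as higher in LW, and 0% passed an adjusted p of 0.05, with 822 of 15431 genes under an unadjusted p of 0.05. The PER3 call rests on a single loop in each MS library against scores of 0 in LW, so its size depends on the pseudocount, and it was 5.25 with a pseudocount of 0.1 and 1.08 for the number of loops. Without either LW library the PER3 fold change stayed at 2.28 and the SE rose to 1.32, which ended the call, in fits that assume the lone LW library to vary as the MS libraries do. The PER3 fold change was 2.97 without MS replicate 1 and 1.58 without MS replicate 2. These fits assume the lone MS library to vary as the LW libraries do, and both LW scores were 0, so they cannot test the call. Without normalization the median of all genes moved to −0.38 and the calls from 386 higher in MS and 436 in LW to 259 and 862, and with scaling to the total score the median moved to −0.15 and the calls to 301 and 718. The log2 fold changes of the other 9 genes lay between −0.79 for CRY1 and 0.60 for NR1D2, with limma standard errors of 0.75 to 0.97. The median over the 10 genes was 0.27, beside −0.02 over all genes tested. The libraries of the breeds did not overlap for 1 gene higher in MS, PER3, where 7.02% of all genes did so, and for 2 genes higher in LW, CLOCK and PER2, where 21.1% of all genes did so. For PER2 the nearest LW and MS scores were equal after rounding, at 10.5. For 2 libraries against 2, the smallest p of an exact permutation test on 1 gene is 0.333.

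**Figure D2:**
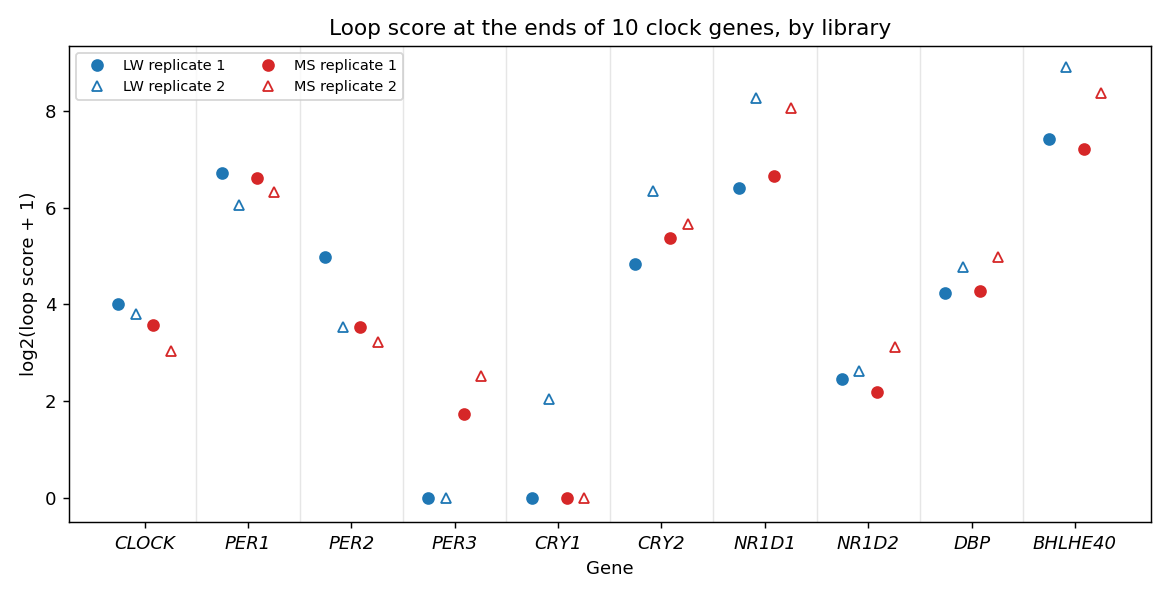
Loop score of the 10 clock genes in each of the 4 BL-HiChIP libraries, as log2(score + 1), with 1 point per library. Filled circles are replicate 1 and open triangles replicate 2, and triangles sit above circles in both breeds for NR1D1, BHLHE40, CRY2, DBP and NR1D2.

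The scores and loops of the clock genes also split by replicate number. 5 genes (CRY2, NR1D1, NR1D2, DBP and BHLHE40) had the higher score in replicate 2 of both breeds, a pattern of 22.2% of all genes with a loop. 3 genes (PER1, PER2 and CLOCK) had the higher score in replicate 1 of both breeds, a pattern of 31.7% of all genes. Of the 29 loops called in exactly 2 libraries, 16 were shared by libraries of the same number in different breeds, 6 by libraries of the same breed and 7 by libraries that differ in both. These were 55.2%, 20.7% and 24.1%, beside 44.8%, 34.6% and 20.5% of all loops called in exactly 2 libraries. The study sequenced replicate 1 more deeply in both breeds, and the part of depth in these patterns was not tested.

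CRY2 and PER1 were the members whose own RNA was listed on chromatin, each in all 4 GRID-seq libraries. In bulk tissue, fewer cells of a type and less RNA per cell cannot be told apart. CRY2 RNA had 3850 and 4232 reads in the LW libraries, against 8819 and 10500 in the MS libraries. In RPM, a read count scaled to the total of reads on listed RNAs, CRY2 had 471 and 426 in LW (448 ± 31.8, SD, n = 2) and 1230 and 1119 in MS (1174 ± 78.0, SD, n = 2). Both MS values were above both LW values. PER1 RNA had 2565 and 2729 reads in LW and 4063 and 4918 in MS. In RPM, PER1 had 314 and 274 in LW (294 ± 27.6, SD, n = 2) and 566 and 524 in MS (545 ± 29.9, SD, n = 2), again with no overlap. Of the 308 RNAs listed in all 4 libraries, 35.4% had no overlap with MS higher and 41.2% with LW higher.

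**Figure D3:**
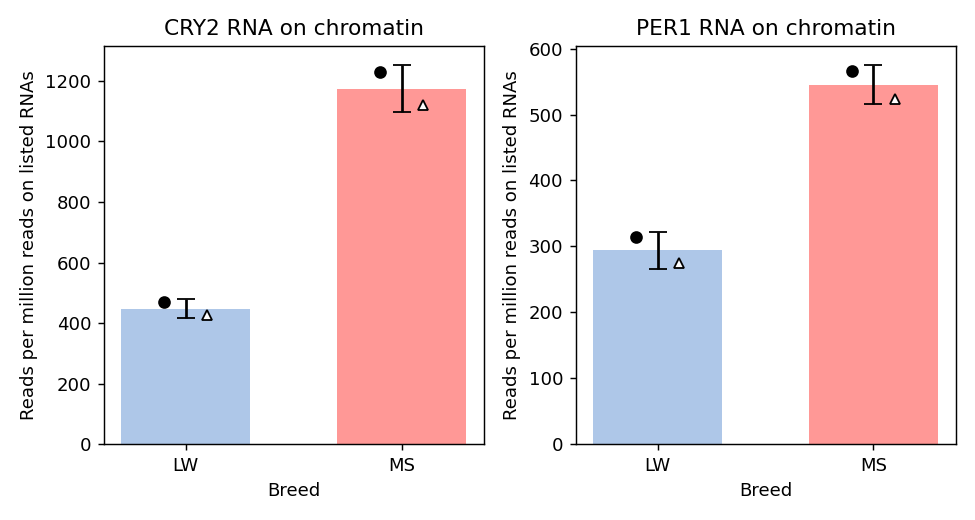
RPM of CRY2 and PER1 RNA in GRID-seq (reads scaled to the total on listed RNAs), with bars for the mean and error bars for the SD of 2 libraries per breed. The circles are replicate 1 and the triangles replicate 2, and all MS points lie above all LW points in both panels.

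In edgeR's quasi-likelihood test of the 308 RNAs listed in all 4 libraries, CRY2 was higher in MS by 1.42 on the log2 scale (SE 0.02, adjusted p = 2.23e-06) and PER1 by 0.92 (SE 0.03, adjusted p = 1.75e-05). Passing this test was common. Of the 308 RNAs, 42.5% passed as higher in MS and 44.2% as higher in LW, 86.7% together, so the size says more than the call. A change of at least the size of CRY2 in favour of MS was seen for 2.60% of the RNAs, and of at least the size of PER1 for 8.12%. When reads were scaled to the total instead of by TMM (trimmed mean of M values), the median RNA moved to −0.13 and the calls from 131 higher in MS and 136 in LW to 99 and 161. Under that scaling CRY2 stood at 1.30 and PER1 at 0.80, both still with an adjusted p under 0.05 (edgeR). The RNAs of the other 8 clock genes were not listed in any library.

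CRY2 RNA spread along chromosome 2, and no bin on another chromosome was listed for it. Of its signal, 30.9% and 32.8% in LW against 26.7% and 30.2% in MS lay more than 10 kb from the gene. Within 10 kb lay 69.1% and 67.2% for LW and 73.3% and 69.8% for MS, beside medians over all listed RNAs of 90.0%, 83.1%, 92.7% and 86.8% in the same order. The signal formed a block of 147 to 202 kb around the gene, from PHF21A to SLC35C1, and smaller blocks on the lower side. In every library such blocks lay inside PHF21A, a histone-binding protein gene of the LSD1 complex. The farthest signal lay 374 and 376 kb from the RNA in the LW libraries, against 1204 and 1755 kb in the MS libraries. The signal is smoothed, since the narrowest run of listed bins was 15 to 22 bins wide in the libraries, so neighbouring bins are not independent.

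The bin at PACSIN3 joined to CRY2 by the loop of 1235 kb carried CRY2 RNA in both MS libraries, with a signal of 29.9 on 4 bins and 164 on 5 bins, and none was listed there in LW. In MS replicate 1 these bins were the edge of a smoothed block whose highest bin, at 54.7, lay outside the anchor. In MS replicate 2 the highest bin, at 37.1, lay just outside it. Of the 14 far anchors more than 10 kb from CRY2, 6 and 7 carried CRY2 RNA in LW and 10 in each MS library. These anchors were pooled over all 4 libraries, so anchors called in a single breed were scored in the other breed as well. An anchor counted if any of its bins was listed, and some held only the edge of a block. Examples are 1 bin with a signal of 3.80 in LW replicate 2 and 2 bins with 3.66 in MS replicate 1. By bins of 1 kb this was 42.9% and 44.3% of the anchors in LW and 64.3% and 67.1% in MS, against 11.3%, 12.9%, 16.7% and 18.4% of all bins over the same span. The span held 1921 bins, since it reached to the longest loops. In LW replicate 1 the far anchors with CRY2 RNA were all of loops of 35 to 70 kb, within the block around the gene. The anchors were not matched to other bins for their distance from the gene, and the part of distance in these shares was not tested. The MS libraries also had more CRY2 reads, and the part of read number in the longer reach was not tested.

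**Figure D4:**
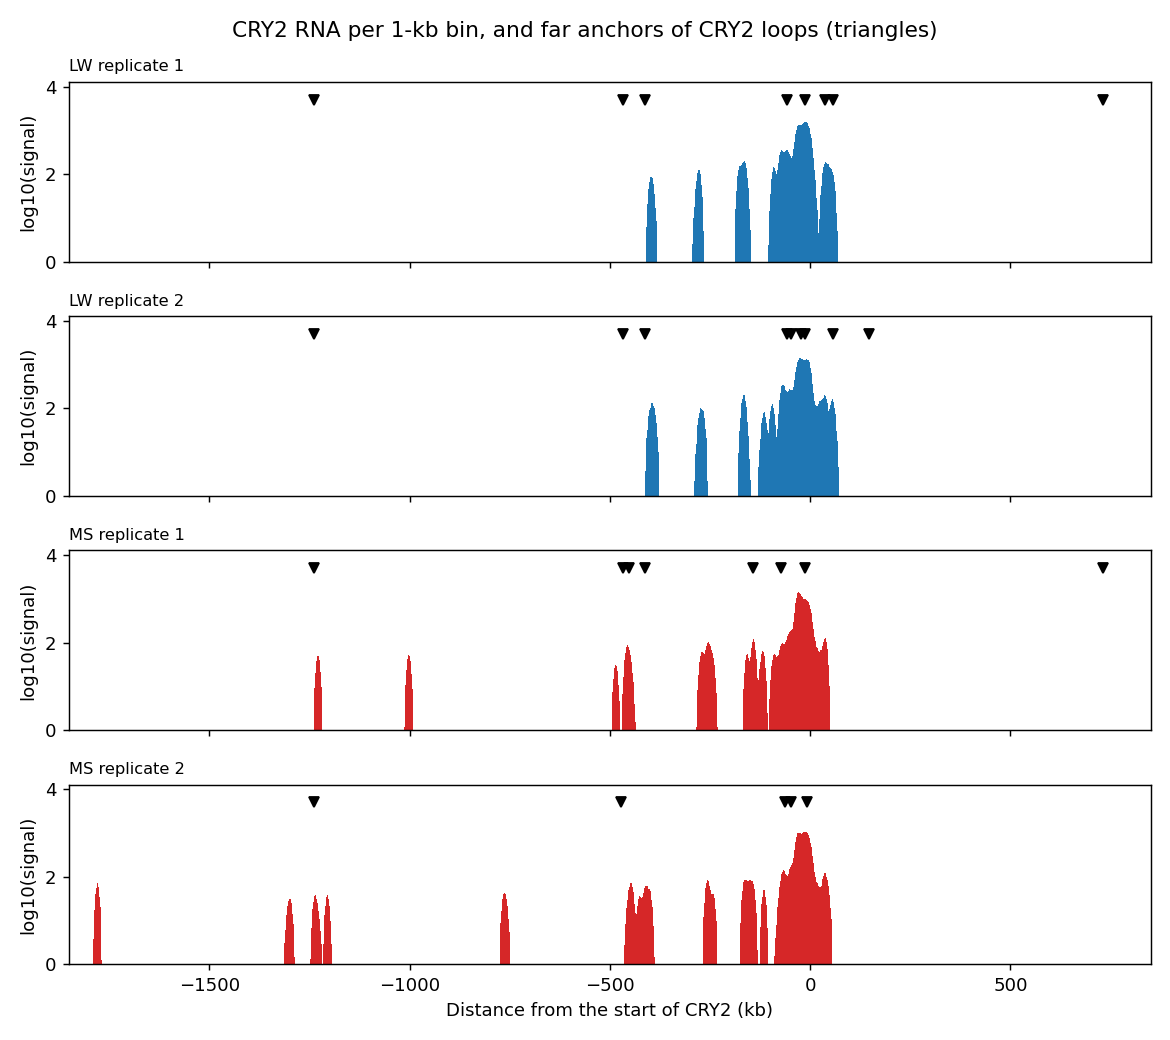
Signal of CRY2 RNA per bin of 1 kb (log10, values under 1 drawn at 0) against the distance from the start of CRY2 (kb), in 1 panel per GRID-seq library, with triangles at the far anchors of the CRY2 loops of the BL-HiChIP library of the same breed and number. The leftmost triangle marks the loop of 1235 kb, which meets a block of CRY2 RNA in the MS panels and no signal in the LW panels.

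PER1 RNA stayed closer to its gene. Within 10 kb lay 99.6% and 92.0% of its signal in LW and 93.9% and 99.8% in MS. More than 10 kb away lay 7.99% in LW replicate 2 and 6.06% in MS replicate 1. Of the whole PER1 signal, a block at ENO3 (muscle enolase) and its neighbours 1386 kb away held 3.93% in LW replicate 2, and a block at CLUH 4604 kb away held 2.31% in MS replicate 1. The rest of the distant signal in these libraries lay in the block around the gene, which reached HES7 in LW replicate 2 and BORCS6 in MS replicate 1. Of the 6 far anchors of PER1 loops more than 10 kb away, pooled over the libraries, LW replicate 2 had PER1 RNA on 2, MS replicate 1 on 3 and the others on 0. By bins of 1 kb, PER1 RNA was on 33.3% of the anchors in LW replicate 2 and 50.0% in MS replicate 1, beside 31.5% and 55.6% of all bins over the span. In the replicates without PER1 RNA on these anchors, 13.0% (LW) and 16.7% (MS) of the bins over the span carried it. The PER1 anchors thus stood within a few percentage points of their span or below it, while those of CRY2 stood above theirs. The span held 54 bins beside the gene for PER1 and 1921 bins for CRY2, so these shares cannot be compared between the genes. The difference between the genes was not tested.

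The RNA-chromatin signal at a gene is the sum over bins within 5 kb of its ends and over all RNAs found there, each relative to that RNA's own reads. At PER1 it was 44117 and 38933 in LW against 35314 and 31484 in MS, and at CRY2 22041 and 21062 for LW and 19178 and 16224 for MS. The gene's own RNA gave 98.5% to 99.5% of it at PER1 and 98.3% to 99.9% at CRY2. Both LW values were above both MS values at either gene, while the reads of both RNAs were higher in MS. The limma log2 fold changes were −0.27 at PER1 (SE 0.86, adjusted p = 0.902) and −0.26 at CRY2 (SE 0.87, adjusted p = 0.907).

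NR1D1 had signals of 31315 and 26541 in LW against 25.8 and 1609 in MS. It was past the study's thresholds of an absolute log2 fold change over 2 with an unadjusted p under 0.05, at −6.90 (SE 1.98, adjusted p = 0.244, limma). Across all genes, 7.49% passed as higher in LW and 8.28% as higher in MS, and 0% passed an adjusted p of 0.05, with 3676 of 23302 genes under an unadjusted p of 0.05. In LW nearly all of this signal was THRA RNA, at 31258 and 26511, and the listed THRA RNA runs over the upper end of NR1D1. THRA RNA had 3692 and 3799 reads in LW and was not listed in MS, which does not show it to be absent there. In MS replicate 2, RNA of TCAP (telethonin of the sarcomere Z-disc), a gene 378 kb away, gave 1494. The LW signal at NR1D1 cannot be told apart from that of THRA. With a lone LW library the NR1D1 fold change was about as large, at −6.78 without LW replicate 1 and −7.02 without LW replicate 2, and the SE rose to 3.46, which ended the call. The NR1D1 fold change was −4.47 without MS replicate 1 and −9.33 without MS replicate 2. These fits assume the lone MS library to vary as the LW libraries do. They leave out the wide split between the MS values, so they cannot test the call.

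At PER2 the signal was 52.2 and 292 for LW and 378 and 444 for MS. Except in LW replicate 1, most of it was RNA of LRRFIP1, a gene 354 kb away on the same chromosome, with 17.3 and 273 in LW against 319 and 444 in MS. LRRFIP1 RNA itself had more reads in LW (24285 and 27270) than in MS (15567 and 18963). The difference at PER2 was 2.24 on the log2 scale (SE 1.01, adjusted p = 0.458, limma). At PER3 the signal was 26.1 and 117 for LW and 0 and 449 for MS, and nearly all of it was RNA listed as ENSSSCG00000033497, which overlaps RERE, a corepressor gene 406 kb away. That RNA was not listed at all in MS replicate 1, and the fold change at PER3 was −1.48 (SE 3.25, adjusted p = 0.851, limma).

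At the other 5 genes most of the RNA signal came from RNAs of other chromosomes. The signal at DBP was 66.4 and 74.0 in LW against 103 and 92.8 in MS, with the RNAs listed as ENSSSCG00000048037 and ENSSSCG00000048856 in all 4 libraries. The signal at BHLHE40 was 0 and 26.5 for LW and 40.1 and 54.6 for MS, with ENSSSCG00000048037 in 3 libraries. NR1D2 had 19.8 and 0 in LW against 46.7 and 42.6 in MS. CRY1 had 0 for LW and 0.417 and 16.1 for MS, and CLOCK had 0.884 in MS replicate 1 and 0 elsewhere. None of these passed the thresholds, at fold changes from 0.81 for CLOCK to 4.02 for BHLHE40 and adjusted p-values from 0.469 to 0.730 (limma). These values hang on single libraries. When each library was left out, BHLHE40 ranged from 1.84 (without LW replicate 1) to 6.21 (without LW replicate 2). CRY1 ranged from 1.31 (without MS replicate 2) to 3.73 (without MS replicate 1). NR1D2 ranged from 1.13 (without LW replicate 2) to 6.19 (without LW replicate 1), and DBP from 0.52 (without MS replicate 1) to 2.27 (without MS replicate 2). RNAs that reach many genes recurred at the clock genes, TTN and ENSSSCG00000048037 at 8 of the 10 and ENSSSCG00000048856 at 7.

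**Figure D5:**
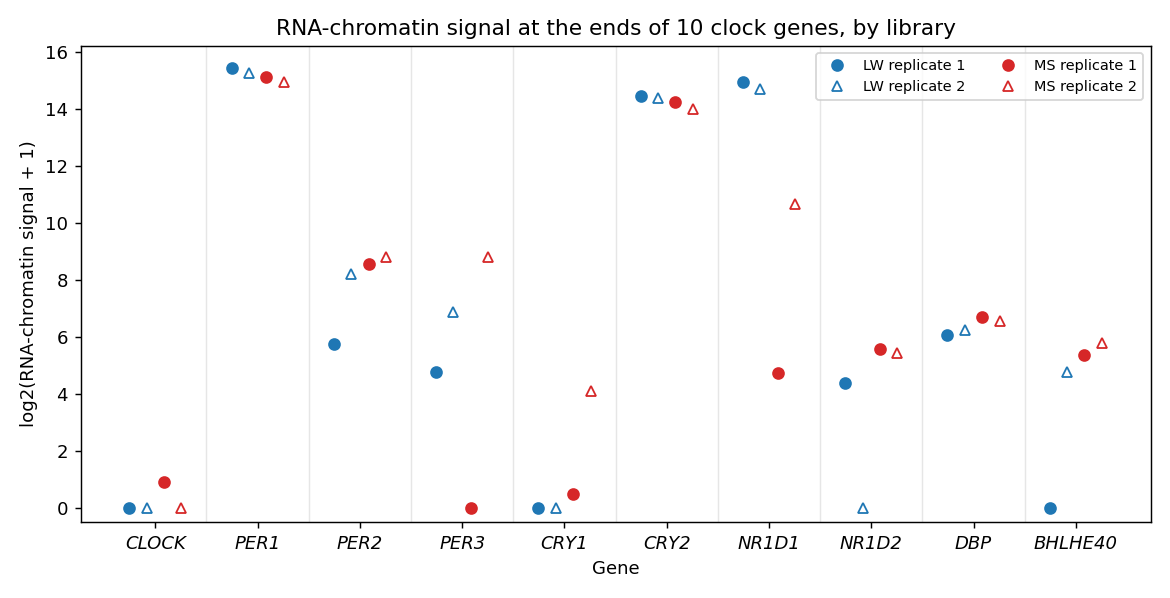
RNA-chromatin signal within 5 kb of the ends of the 10 clock genes in each of the 4 GRID-seq libraries, as log2(signal + 1), with 1 point per library. PER1 sits highest in all libraries, and the LW points of NR1D1 lie far above its MS points.

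The median fold change of the signal over the 10 genes was 1.10, beside 0.05 over all genes tested. The libraries of the breeds did not overlap for 5 genes higher in MS (PER2, CRY1, NR1D2, DBP and BHLHE40), where 20.5% of all genes did so, and for 3 higher in LW (PER1, CRY2 and NR1D1), where 16.7% of all genes did so. Over all members, 69 pairs of a clock gene and an RNA were listed, 26 of them in at least 2 libraries and 9 in all 4.

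Of 20 other clock genes, 18 were matched in the gene table, and 12 of these had a loop in all 4 libraries, as did 31.7% of the protein-coding genes. Their median loop score was 16.0 and 17.4 in LW against 12.3 and 10.7 in MS. For ARNTL, the partner of CLOCK, the score was 10.5 and 3.29 for LW and 4.65 and 0 for MS. 0 of the 15 genes tested for loops passed the thresholds in either direction, where 2.50% of all genes tested passed as higher in MS and 2.83% in LW. For RNA-chromatin signal, 3 of the 17 tested passed as higher in MS and 1 as higher in LW. Over all genes tested 8.28% passed as higher in MS and 7.49% as higher in LW, and whether the other clock genes differ from this share was not tested. HLF, a PAR bZIP factor related to DBP, had signals of 0 and 0.0317 in LW against 208 and 152 in MS (log2 fold change 7.77, adjusted p = 0.142, limma). GSK3B, a kinase that phosphorylates clock proteins, had 0 for LW and 44.7 and 61.7 for MS (6.44, adjusted p = 0.140, limma), and NFIL3, a repressor that opposes DBP, had 0 in LW against 8.43 and 10.1 in MS (3.00, adjusted p = 0.247, limma). CIART, a repressor of CLOCK and BMAL1, had 1622 and 2736 for LW and 48.3 and 133 for MS (−4.04, adjusted p = 0.192, limma). RORA, the activator that competes with the NR1D receptors, was the sole other clock gene with a listed RNA, at 104390 and 113779 reads in LW and 83821 and 97339 in MS (−0.10, SE 0.015, adjusted p = 0.00276, edgeR).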

How the data were processed

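The authors called BL-HiChIP loops in each library with FitHiChIP at 5 kb on Sscrofa11.1, and the deposited value per loop was read as an FDR, a p-value after adjustment, under 0.01. For GRID-seq the authors deposited a read count per chromatin-enriched RNA and a background-corrected signal per RNA and 1-kb bin, starting at 0.02. The columns carry no names and were identified by their values. Gene positions and IDs came from RefSeq, which gives no strand here, so both gene ends were used. The 10 members, the list of 20 other clock genes and the markers were chosen with earlier results of these data known. All 10 members are named, with far-anchor genes and RNAs mainly where found in at least 2 libraries.

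Loop scores and signals were quantile-normalised and compared with limma 3.58.1 (pseudocount 1), and RNA counts with edgeR 4.0.16 (TMM) in R 4.3.3. Benjamini-Hochberg adjustment ran over the 15431 genes with a loop, or the 23302 with a signal, in at least 1 library. For the counts it ran over the 308 RNAs listed in all 4 libraries. DESeq2 1.42.0 was an alternative for the counts. Both tests were tested on simulated data: for loop scores of 15414 genes, limma made 0 adjusted calls among 200 genes with a log2 change of 6 and gave 84.0% of them, and 6.08% of unchanged genes, an unadjusted p under 0.05. For RNA-chromatin signal it made 0 adjusted calls and gave 63.5% at a change of 6 and 37.0% at 3, and edgeR called 60 of 60 RNAs changed by 1. The totals of listed reads are not the libraries' full depth. Promoter motifs were not analysed here. Python 3.11.15, pandas 2.3.3 and matplotlib 3.10.9 were used.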

Additional observations from a re-analysis of the deposited data

How the results depend on the processing

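The RNA read calls of CRY2 and PER1 held under the 9 alternatives run, with log2 fold changes of 1.42 to 1.43 for CRY2 and 0.90 to 0.95 for PER1 when each library was left out. Among 302 recomputed fold changes of the members, 258 kept their direction and side of the threshold, and no alternative gave a member an adjusted p under 0.05 for loops or signal. The number of members past the loop thresholds, 1 in the report, was 0 with a window of 5 kb, at an FDR of at most 0.001, over all genes of the table and by the number of loops. For the signal, also 1 (NR1D1), it was 2 with a window of 1 kb (with PER2), a window of 10 kb or a pseudocount of 0.1 (with CRY1), 0 without RNAs found on other chromosomes, without normalization and over all genes of the table, and 0 to 3 when each library was left out. By the number of pairs the gene past the thresholds was CRY1 in place of NR1D1. The replicates of a breed shared 18 loops at the members in LW and 10 in MS, against 68 and 70 in either, and the shares over all loops are not given here.

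Small loop differences changed direction: PER1 to −1.37 from its start alone, CRY2 to −0.066 without normalization and −0.19 by the number of loops, CLOCK to 1.00 where the anchor holds the gene end and 0.70 by the number of loops, NR1D1 to −0.21 and BHLHE40 to 0.25 by the number of loops, and DBP to −0.26 with a window of 5 kb and −0.10 at an FDR of at most 0.001. When each library was left out the loop values ranged from −0.29 to 0.81 for PER1, −1.24 to 0.017 for PER2, −1.88 to 0.30 for CRY1, −0.46 to 1.01 for CRY2, −0.39 to 0.96 for NR1D1, −0.0036 to 1.21 for NR1D2 and −0.60 to 0.20 for BHLHE40. Signal values changed direction for PER1 (0.13) and CRY2 (2.23) without the own RNA, PER2 (−0.19) by the number of pairs and PER3 (0.15) with a window of 1 kb, and when each library was left out they ranged from −5.74 to 2.77 for PER3 and from 0 to 1.61 for CLOCK. For these reversals the cause was not tested. Where the anchor holds the gene end, the mean normalised log2(loop score + 1) of CRY2 fell from 5.37 to 1.09 in LW and from 5.64 to 1.78 in MS. That of CLOCK fell from 3.74 to 0 in LW and from 3.51 to 1.00 in MS.

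With the replicate number as a block, the members past the thresholds were the same, PER3 (1), NR1D1 (1) and CRY2 and PER1 (2), while over all genes the loop calls rose from 386 to 593 higher in MS and from 436 to 696 higher in LW, and the signal calls fell from 1930 to 1379 higher in MS and from 1746 to 1167 higher in LW. Deviations of libraries with the same number correlated at 0.35 for loop scores, −0.0062 for signal and 0.94 for RNA reads across genes, but with 2 pairs the numbers are not known to pair animals. Over all genes and settings, loop calls ranged from 68 to 957 higher in MS and 88 to 862 higher in LW, and the filter that keeps all genes gave 64 adjusted loop calls and 763 adjusted signal calls, and leaving out RNAs found on other chromosomes gave 817 adjusted signal calls, against 0 in the report and with no member among them. RNAs below the listed minimum of reads and loops above an FDR of 0.01 cannot be seen in these lists.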
